A study of Mus musculus with 6 samples.

Results

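Expression of 9 genes of plasminogen activation and matrix proteolysis, given by symbol, was followed in basal epidermal cells of mouse embryos, and all 9 were found by symbol among the 24354 genes of the deposited table. They were the urokinase gene Plau, its receptor Plaur, the tissue-type activator Plat, the serpin Serpine2, the metalloproteases Mmp2, Mmp9 and Mmp14, and the inhibitors Timp2 and Timp3. RNA sequencing covered 6 libraries of epidermal cells with high surface α6 integrin, sorted by flow cytometry at embryonic day E18.5. The 3 wild-type (WT) libraries and the 3 libraries homozygous for Pik3ca H1047R (mutant) all carry the strain label C57BL6. The variant activates the catalytic subunit of phosphoinositide 3-kinase. The labels name no promoter, Cre driver or other allele, and do not say whether each library came from a separate animal, so the p-values rest on the spread among these libraries, which may be technical.

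Plasmin is a broad serine protease that dissolves fibrin and cuts matrix proteins. It is made from plasminogen by urokinase or tissue-type plasminogen activator, and urokinase is held at the cell surface by its receptor, which is anchored in the membrane by a lipid. Matrix metalloproteases cut collagens, laminins and other matrix proteins, and TIMPs (tissue inhibitors of metalloproteases) block them. MMP14 sits in the membrane and, with TIMP2 as an adaptor, activates MMP2. In skin this system is known for its part in wound closure, where migrating keratinocytes produce urokinase and its receptor.

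Values are FPKM (sequenced fragments per kilobase of a transcript, scaled for the library size), which allow levels of different genes to be set side by side. Library totals were 656761 to 767148 FPKM in WT libraries and 538627 to 651769 FPKM in mutant libraries, and between 11242 and 11351 genes per library reached 1 FPKM. The number of reads is unknown. From the ratios of low values, the depth of the other libraries was estimated at 0.981 to 1.24 times that of WT replicate 1. Pik3ca itself was read at 8.70, 8.92 and 9.50 FPKM in WT libraries and at 7.15, 6.81 and 5.98 FPKM in mutant libraries, and these values do not show the allele. Of 9 basal keratinocyte markers, all were tested, with 5 lower and 1 higher, and the basal keratin gene Krt5 was between 11360 and 13033 FPKM in every library. The suprabasal markers summed to 3861 to 4663 FPKM in WT libraries and to 11751 to 14347 FPKM in mutant libraries. Krt1 (means 1489 and 5730 FPKM) and Krt10 (1704 and 5899 FPKM) weigh most in these sums. Of the 8 markers measured, 4 were higher, 1 (Lor) was lower and 3 did not pass.

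The regulatory sequence before 3 of the genes is shown for orientation: Plaur and Timp3, which were both lower in mutant libraries, and Mmp14, an abundant gene that did not pass the test. Sequences come from RefSeq (GRCm38.p6), where 5 of the 9 genes matched (also Serpine2 and Timp2). Each is 5′ to 3′ on the plus strand and ends at or before the annotated start. The 250 bases before each start were searched on both strands for an AP-1 motif (TGANTCA), a FOXO motif (GTAAACA), a TEAD motif (GGAATG), an ETS motif (GGAAGT) and an Sp1 motif (GGGCGG). Capitals mark matches. For Timp3 the last 40 bases of the window are not shown because they overlap an annotated exon.
Plaur promoter, chr7:24462233-24462482: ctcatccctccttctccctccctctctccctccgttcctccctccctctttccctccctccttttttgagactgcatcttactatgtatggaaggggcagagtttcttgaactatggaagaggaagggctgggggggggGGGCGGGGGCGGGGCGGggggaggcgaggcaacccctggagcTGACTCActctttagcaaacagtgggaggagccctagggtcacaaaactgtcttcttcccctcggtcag
Timp3 promoter, chr10:86300162-86300371: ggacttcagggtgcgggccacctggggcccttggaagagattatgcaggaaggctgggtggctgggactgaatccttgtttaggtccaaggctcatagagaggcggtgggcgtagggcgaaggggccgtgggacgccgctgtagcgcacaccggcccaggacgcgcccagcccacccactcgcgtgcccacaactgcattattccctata
Mmp14 promoter, chr14:54431348-54431597: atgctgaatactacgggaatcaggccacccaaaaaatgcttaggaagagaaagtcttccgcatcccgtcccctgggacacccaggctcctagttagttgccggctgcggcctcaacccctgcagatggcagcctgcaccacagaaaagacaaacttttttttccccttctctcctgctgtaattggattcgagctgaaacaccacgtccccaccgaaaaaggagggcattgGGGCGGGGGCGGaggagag

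The AP-1 motif was found once among these 5 windows, before Plaur, where it begins at position -69 counted from the start. Of 32851 windows of the same length, 6.75% held it. The Sp1 motif was found in all 5 windows, with 3 matches for Plaur, 2 of them sharing a base, and 32.7% of all windows held it. The match of Timp3, at position -15, lies in the bases not shown, which overlap an annotated exon. The FOXO, TEAD and ETS motifs, held by 3.17%, 12.6% and 19.7% of windows, were not among the letters of the 5 windows. A match is a description of the sequence only.

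The receptor and its ligand moved in opposite directions: Plaur fell 6.83-fold and Plau rose 1.60-fold. Timp3 fell 2.21-fold and Mmp2 rose 1.32-fold. Of the 8 genes whose mean reached 1 FPKM, 2 were higher and 2 lower (50%) at a limma adjusted p under 0.05. Of all 11385 genes tested, 46% passed, 23.2% higher and 22.8% lower, so the share among these 8 genes was near the background. The groups did not overlap for the same 4 genes, against 56% of all genes tested.

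**Figure D1:**
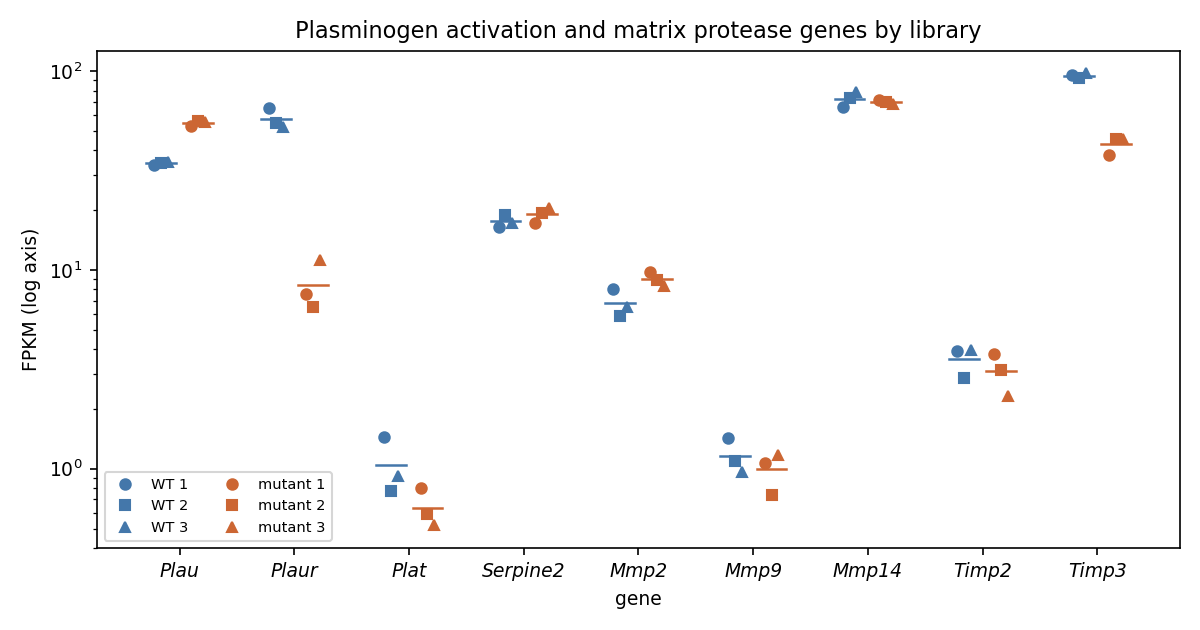
FPKM on a log axis of the 9 genes in each of the 6 libraries, with WT in blue, mutant in orange, a symbol per replicate and a line at each group mean. Plau and Plaur change places between the groups, from 34.4 and 57.5 FPKM in WT to 54.9 and 8.41 FPKM in mutant libraries.

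Plau encodes urokinase, the activator that works at the cell surface. It was measured at 33.6, 34.6 and 34.8 FPKM in WT libraries and at 53.0, 55.9 and 55.8 FPKM in mutant libraries. Every mutant value lay above every WT value, and the spread within each group was small. The group means were 34.4 ± 0.658 and 54.9 ± 1.65 FPKM (SD, n = 3), a log2 difference of 0.66 on the log2(FPKM + 1) scale (SE 0.0540, limma adjusted p = 6.72e-05). A two-sided exact permutation test of this gene gave p = 0.1, which is the lowest possible for 3 against 3. The gene lies on chromosome 14 (20836662 to 20843388, plus strand).

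Plaur encodes the urokinase receptor. It was measured at 65.2, 54.8 and 52.4 FPKM in WT libraries and at 7.59, 6.48 and 11.2 FPKM in mutant libraries. The groups were far apart, and mutant replicate 3 was the highest of its group. The means were 57.5 ± 6.81 and 8.41 ± 2.46 FPKM (SD, n = 3), and the log2 difference of Plaur was -2.66 (SE 0.170, limma adjusted p = 2.31e-05), the decrease of rank 32 among all genes tested. It was the member whose deposited intervals, of a level not given in the sources used here, lay apart: the lowest WT bound was 35.9 FPKM and the highest mutant bound 15.4 FPKM. For the other 8 genes these intervals overlapped between groups. Plaur lies on chromosome 7 (24462500 to 24475873, plus strand).

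Plat encodes tissue-type plasminogen activator and was low in all libraries. Its values were 1.45, 0.775 and 0.922 FPKM in WT libraries and 0.798, 0.594 and 0.519 FPKM in mutant libraries. The groups overlapped, and WT replicate 1 was the highest. With a mean under 1 FPKM it was not in the limma test, and its two-sided exact permutation p was 0.2. Without the filter on low values, limma gave a log2 difference of -0.31 (SE 0.132, adjusted p = 0.130).

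Serpine2 encodes protease nexin-1, an inhibitor of thrombin, urokinase and tissue-type activator. It was read at 16.5, 19.0 and 17.3 FPKM in WT libraries and at 17.3, 19.3 and 20.6 FPKM in mutant libraries. These ranges overlapped, with means of 17.6 ± 1.28 and 19.0 ± 1.67 FPKM (SD, n = 3) and a log2 difference of 0.11 (SE 0.0813, limma adjusted p = 0.306). Giving all libraries an equal total FPKM made it pass as higher (log2 difference 0.42, adjusted p = 0.00912).

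Mmp14 encodes the membrane-type metalloprotease and was the most abundant metalloprotease of the table's MMP genes in both groups. Its values were 66.3, 73.3 and 78.5 FPKM in WT libraries and 71.8, 70.4 and 68.2 FPKM in mutant libraries. The mutant values lay within the WT range, with a log2 difference of -0.05 (SE 0.0730, limma adjusted p = 0.614). The direction was positive with equal library totals (0.28, adjusted p = 0.0944) and under quantile normalization (0.09, adjusted p = 0.413). Leaving out small RNA genes before that scaling made it pass as higher (0.32, adjusted p = 0.0344).

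Mmp2 encodes gelatinase A, the enzyme that MMP14 activates. It was measured at 7.999, 5.87 and 6.53 FPKM in WT libraries and at 9.79, 8.86 and 8.26 FPKM in mutant libraries. The lowest mutant value lay just above the highest WT value. The means were 6.80 ± 1.09 and 8.97 ± 0.772 FPKM (SD, n = 3), a log2 difference of 0.36 (SE 0.108, limma adjusted p = 0.0272). This call was the weakest of the 4: it ended without WT replicate 2 (adjusted p = 0.0859), WT replicate 3 (0.0612), mutant replicate 1 (0.0849) or mutant replicate 2 (0.0702), without the filter on low values (0.0608) and at a threshold of 0.01.

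Mmp9 encodes gelatinase B, a metalloprotease of neutrophils, macrophages and migrating keratinocytes. It was close to the filter, at 1.42, 1.10 and 0.968 FPKM in WT libraries and 1.07, 0.735 and 1.17 FPKM in mutant libraries. The groups overlapped (log2 difference -0.12, SE 0.132, limma adjusted p = 0.484), and the sign turned with equal library totals (0.05). The deposited intervals of Mmp9 reached 52.3% to 64% of the value to either side, and those of Plat 55.9% to 74.5%, against 31.5% to 32.6% for Plau.

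Timp3 encodes an inhibitor that binds to the matrix and blocks both MMPs and several ADAM proteases. It was the most abundant of the 9 genes in WT, at 95.6, 92.0 and 97.7 FPKM, and was read at 38.1, 45.4 and 45.8 FPKM in mutant libraries. The groups were far apart, with means of 95.1 ± 2.84 and 43.1 ± 4.33 FPKM (SD, n = 3). The log2 difference of Timp3 was -1.13 (SE 0.0805, limma adjusted p = 3.59e-05). The annotated gene (chromosome 10, 86300372 to 86349506, plus strand, GRCm38) lies within Syn3 on the other strand. The largest overlap of a single annotated exon of Syn3 with the 8144 exonic bases of Timp3 is 1733 bases, so more bases may be shared. Strand handling is not stated, so reads of Syn3 and Timp3 from the shared bases cannot be told apart. Syn3 was read at 0.386 to 0.552 FPKM in all 6 libraries. The table gives both genes the same, much longer locus (86048746 to 86498896).

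Timp2 encodes the inhibitor that also links MMP2 to MMP14. Its values were 3.91, 2.86 and 3.96 FPKM in WT libraries and 3.79, 3.15 and 2.33 FPKM in mutant libraries. The groups overlapped, with a log2 difference of -0.17 (SE 0.153, limma adjusted p = 0.398), and the sign turned with equal library totals (0.09) and with library weights (0.04).

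The order of levels changed between the groups. In WT libraries it ran Timp3, Mmp14, Plaur, Plau, Serpine2, Mmp2, Timp2, Mmp9 and Plat, with the ranges of neighbours apart except those of Mmp9 and Plat. In mutant libraries it ran Mmp14, Plau, Timp3, Serpine2, Mmp2, Plaur, Timp2, Mmp9 and Plat, where the ranges of Mmp2 and Plaur overlapped, as did those of Mmp9 and Plat. Together the 9 genes summed to 284 to 293 FPKM in WT libraries and to 203 to 214 FPKM in mutant libraries. These sums were not scaled to the library totals, which were also lower in mutant libraries (538627 to 651769 against 656761 to 767148 FPKM).

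How the authors scaled the libraries is a step not given in the sources used here. Equal library totals moved the log2 difference of the median gene from 0.01 to 0.30, and the calls over all genes from 2642 higher and 2592 lower to 5375 higher and 842 lower. Among the 9 genes it gave 3 higher and 2 lower. Relative to the median gene, Plaur lay at -2.67 as deposited and at -2.65 under this scaling, Plau at 0.65 and 0.68, Timp3 at -1.14 and -1.10, and Mmp2 at 0.35 and 0.35. Plau, Plaur and Timp3 kept their direction and passed in every alternative that was run.

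**Figure D2:**
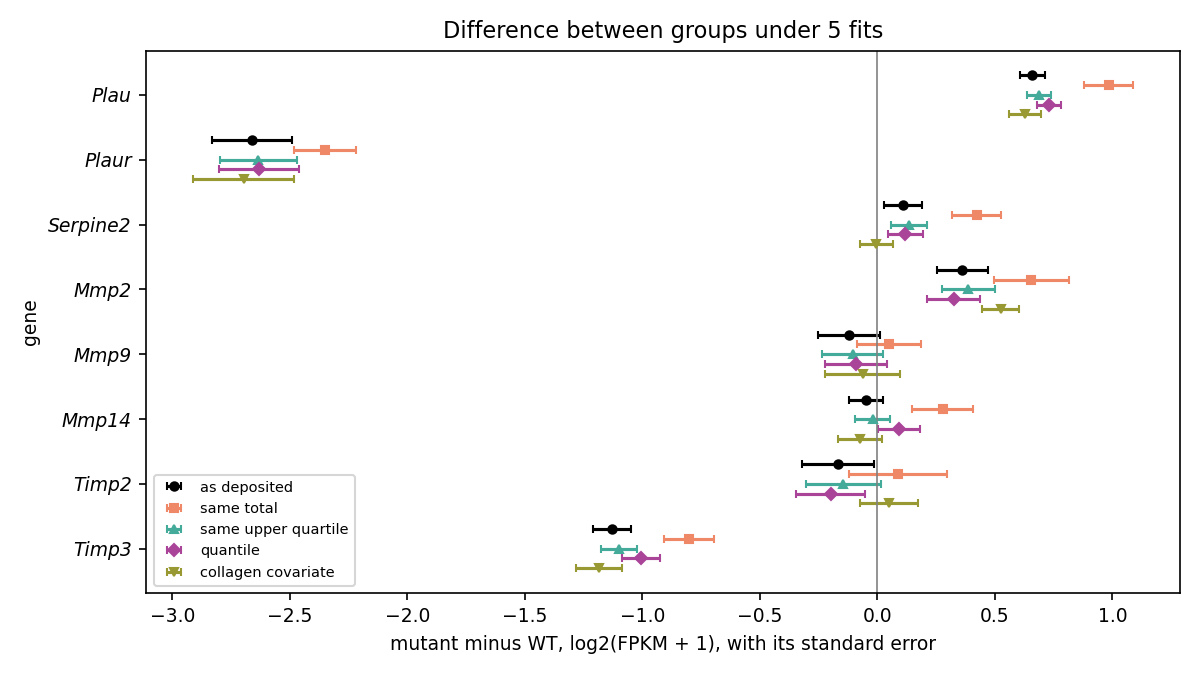
Difference of the groups (mutant minus WT, log2(FPKM + 1)) with its standard error for the 8 tested genes under 5 fits. Plaur, Timp3 and Plau stay on the same side of 0 in each, whereas Mmp14 moves from -0.05 as deposited to 0.28 with equal library totals.

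Ratios of genes within a library do not change when a library is multiplied by a factor, apart from the pseudocount of 1. In these 9 ratios the smallest exact p is 0.1, which is 0.129 after adjustment over the 9. The log2 ratio of Plaur to Plau was 0.94, 0.65 and 0.58 in WT and -2.65, -2.93 and -2.22 in mutant libraries. Receptor mRNA thus exceeded ligand mRNA per length in each WT library and was below it in each mutant library, a difference of -3.32 (two-sided exact permutation p = 0.1). Timp3 relative to Timp2 was 4.30, 4.59 and 4.32 in WT and 3.03, 3.48 and 3.81 in mutant libraries (exact permutation p = 0.1).

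Activator relative to inhibitor mRNA was higher in mutant libraries for Plau. The log2 ratio of Plau to Serpine2 was 0.98, 0.83 and 0.97 in WT and 1.56, 1.49 and 1.39 in mutant libraries (exact permutation p = 0.1). That of Plat to Serpine2 overlapped between groups (difference -0.42, exact permutation p = 0.2). The ratio of Mmp2 to Timp2 was 0.87, 0.83 and 0.60 in WT and 1.17, 1.25 and 1.48 in mutant libraries, without overlap (exact permutation p = 0.1). Mmp2 was also higher relative to Mmp14 (difference 0.41, exact permutation p = 0.1), whereas Mmp14 relative to Timp2 overlapped (4.02 ± 0.247 and 4.14 ± 0.227, SD, n = 3; exact permutation p = 0.6). The ratios of Plau to Plat (difference 0.97) and of Mmp9 to Mmp2 (difference -0.48) did not overlap between groups either (exact permutation p = 0.1 each).

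**Figure D3:**
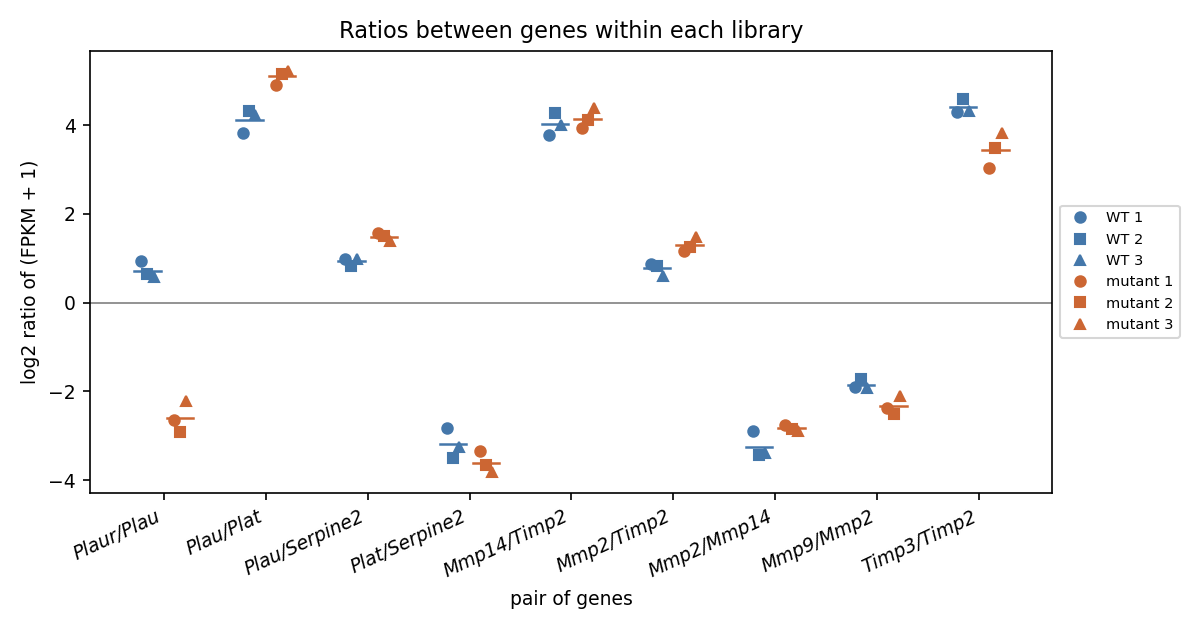
Log2 ratio of (FPKM + 1) of 9 pairs of genes in each library, with WT in blue, mutant in orange and a line at each group mean. The ratio of Plaur to Plau lies above 0 in the 3 WT libraries and at or below -2.22 in the 3 mutant libraries.

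Among other genes of the plasminogen system, 9 of 12 tested (24 in the table) were lower and 1, Thbd, was higher, with a median log2 difference of -0.71 against 0.01 for all genes. Of all genes tested, 22.8% were lower and 23.2% higher, the background for this and each further list. Equal library totals gave 7 lower and 2 higher. Plg, which encodes plasminogen itself and is made mainly in liver, was listed at 0 in all 6 libraries. Serpinb2, the gene of the urokinase inhibitor PAI-2, was at 841, 653 and 609 FPKM in WT libraries and at 91.6, 109 and 109 FPKM in mutant libraries. It fell 6.80-fold (log2 difference -2.74, limma adjusted p = 8.05e-06). Serpinb8 fell from 24.4 ± 0.357 to 13.2 ± 1.70 FPKM (SD, n = 3).

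Partners of plasminogen and of clotting proteases at the cell surface belong to the same list. Anxa2 and S100a10, whose proteins form a complex known as a plasminogen receptor, were chosen after their values were seen. Anxa2 was at 2469, 2256 and 1946 FPKM in WT libraries and at 1313, 1322 and 1597 FPKM in mutant ones (limma adjusted p = 0.00631). S100a10 was at 887 to 1150 FPKM in WT libraries and at 537 to 724 FPKM in mutant libraries. Tissue factor (F3) fell from 518 ± 68.7 to 114 ± 12.6 FPKM, and F2rl1, the protease-activated receptor PAR2, fell from 94.3 ± 5.28 to 37.0 ± 2.03 FPKM (SD, n = 3). The plasminogen receptor gene Plgrkt (limma adjusted p = 0.0954) and Eno1 (0.124), which encodes enolase, did not pass as deposited. With equal library totals Plgrkt passed as higher (limma adjusted p = 0.00183).

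Among 18 partners of the urokinase receptor and clearance receptors, 16 were tested, 7 lower and 3 higher (median -0.15), beside 22.8% lower and 23.2% higher among all genes. Under equal library totals the list split into 5 lower and 5 higher. Itga5, the fibronectin receptor subunit, was at 53.4 ± 2.42 FPKM in WT libraries and 10.4 ± 0.378 FPKM in mutant libraries (SD, n = 3). Its partner Itgb1 fell from 178 to 79.2 FPKM, Egfr from 39.6 to 24.3 FPKM, and Cav1, which encodes caveolin, from 279.9 to 120.5 FPKM. Cd44, a hyaluronan receptor, did not pass (limma adjusted p = 0.397). The higher genes were Vldlr, Mrc2 and Sdc1, chosen after their values were seen. Mrc2 encodes an endocytic collagen receptor that also binds the urokinase receptor and was at 12.1 to 13.5 FPKM in WT libraries and 15.1 to 16.1 FPKM in mutant libraries.

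Few other metalloproteases of the MMP family were measurable. Of 20 further Mmp genes, 6 were listed at 0 in all libraries and 2 passed the filter. Mmp15, a second membrane-type enzyme, rose from 3.44 ± 0.462 to 5.98 ± 0.591 FPKM, and Mmp11 fell from 4.67 ± 0.400 to 3.36 ± 0.234 FPKM (SD, n = 3). The call of Mmp11 ended with equal library totals. Among wound-type genes below the filter, Mmp13 was at 0.156 to 0.285 FPKM in WT libraries and 0.0177 to 0.0198 FPKM in mutant libraries, and Mmp3 at 0.413 to 0.553 and 0.0918 to 0.164 FPKM. Both were chosen after their values were seen. Timp1 was at 1.97, 1.05 and 1.17 FPKM in WT libraries and at 0.704, 0.0637 and 0.214 FPKM in mutant libraries, under the filter. It too was chosen after its values were seen. The inhibitor genes Timp4, Reck, Tfpi2 and A2m were also under the filter, and their groups overlapped. Of 8 other inhibitors and matrix proteins that bind proteases, 3 were tested, 2 lower and 0 higher (median -0.87). Thbs1, a matrix protein gene that binds proteases and their inhibitors, fell from 1194 ± 111 to 438 ± 81.2 FPKM (SD, n = 3). Sparc, of the same list, fell from 310.0 to 169.8 FPKM, and Thbs2 did not pass (limma adjusted p = 0.114).

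Of 10 tested ADAM and ADAMTS genes, 5 were higher and 3 lower as deposited (median 0.25), beside 23.2% and 22.8% of all genes. This split depended on the scaling, since equal library totals gave 6 higher and 0 lower. Adam10, the sheddase of Notch and cadherins, rose from 21.2 ± 0.454 to 27.0 ± 1.57 FPKM, and Adam15 from 14.6 ± 0.290 to 18.9 ± 1.44 FPKM (SD, n = 3). Adamts18 rose from 1.76 to 2.87 FPKM, whereas Adam8 fell from 17.6 to 12.4 FPKM, a call that ended with equal library totals. Adamts17 (limma adjusted p = 0.0573) and Adamts9 (0.317) did not pass as deposited, but Adamts17 passed as higher with equal library totals (0.0230).

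Surface serine proteases and their partners gave 7 lower and 4 higher of 16 tested (median -0.18), beside 22.8% and 23.2% of all genes. The balance turned with equal library totals, at 3 lower and 5 higher. Tmprss4, a membrane serine protease, was at 16.2, 14.3 and 16.5 FPKM in WT libraries and at 47.0, 43.9 and 39.0 FPKM in mutant libraries, a 2.76-fold rise (limma adjusted p = 1.88e-05). Htra1, a secreted serine protease, fell from 210.1 to 100.8 FPKM, Met, the receptor of hepatocyte growth factor, from 19.9 to 11.1 FPKM, and Hpn, which encodes hepsin, from 3.37 to 1.33 FPKM. St14, which encodes matriptase, was at 24.3 ± 0.550 and 22.0 ± 1.05 FPKM (SD, n = 3; limma adjusted p = 0.0797), and Dpp4 did not pass as deposited (0.225). With equal library totals Dpp4 passed as higher (limma adjusted p = 0.0384).

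Of 15 tested matrix substrates, 10 were lower and 0 higher (median -0.40), and 5 did not pass, beside 22.8% lower and 23.2% higher among all genes. With equal library totals 4 were lower and 0 higher. The laminin chain genes Lamb3 and Lama3 fell, Lamb3 from 220.2 to 126 FPKM and Lama3 from 71.2 to 43.9 FPKM. Tnc, which encodes tenascin C, fell from 144 to 19.3 FPKM. Fibronectin (Fn1) was at 59.5 ± 4.66 and 58.6 ± 6.64 FPKM (limma adjusted p = 0.844), and Col7a1 did not pass (0.245). Over the 7 lists together, 14 genes were higher and 39 lower as deposited, and 19 higher and 21 lower with equal library totals.

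**Figure D4:**
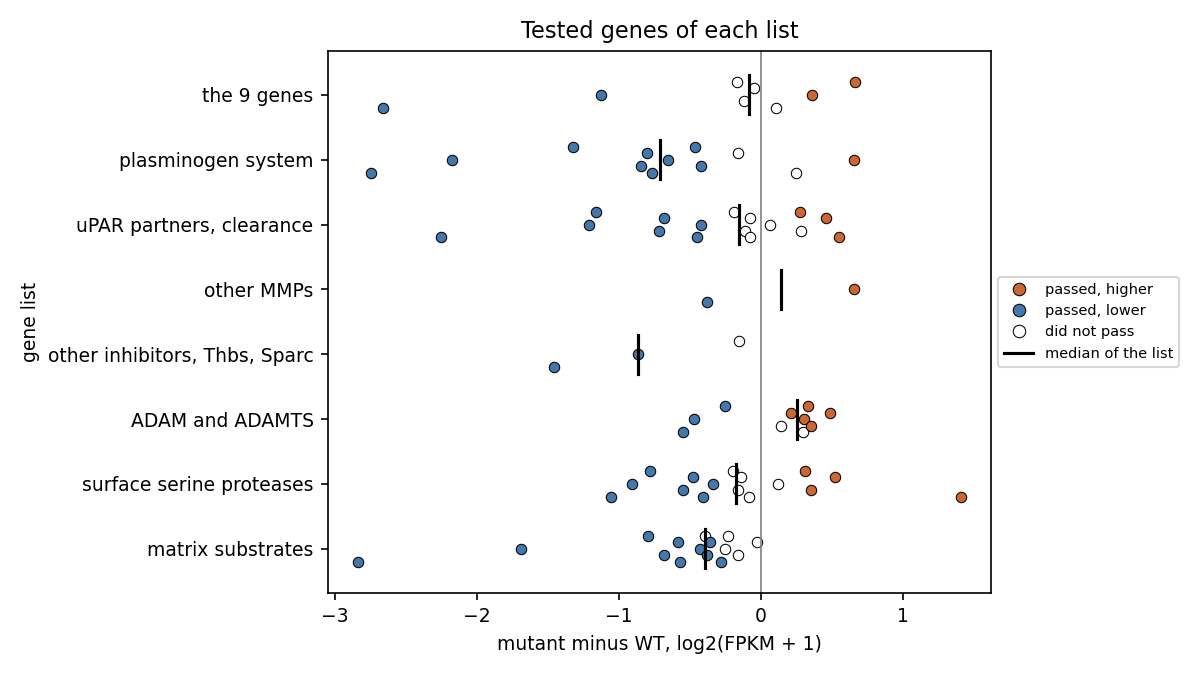
Log2(FPKM + 1) differences (mutant minus WT) of the tested genes in each list, filled orange or blue where they passed as higher or lower, with a line at the median of the list. Most tested genes of the plasminogen system and of matrix substrates lie left of 0, whereas ADAM and ADAMTS genes have a median of 0.25.

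Among the genes whose levels across the 6 libraries were most like those of Plaur were Sparc and Pxdc1, and those most like Timp3 were Cited2, Ppm1d and Lima1 (Pearson's r of 0.9985 to 0.999). These values describe 6 points in 2 separated groups: 1011 of the 8539 genes ranked had an r over 0.95 with Plaur, and 880 with Timp3.

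In these bulk samples, fewer cells of a type and less RNA per cell cannot be told apart, and the sort could hold other cells that make these genes. Of 16 dermal fibroblast markers, 14 were tested, 7 lower and 0 higher, and none was at 0. Among all genes tested 46% passed and 22.8% were lower, which is the background for each marker count. The fibroblast markers summed to 1115 to 1308 FPKM in WT libraries and to 872 to 897 FPKM in mutant libraries. Postn, Sparc and Dcn weigh most in these sums. Neither these sums nor the further marker sums were scaled to the library totals, which were also lower in mutant libraries. The collagen genes, chosen after their values were seen, varied within each group. Col1a1 was at 67.9, 31.9 and 43.8 FPKM in WT libraries and at 47.1, 29.7 and 20.9 FPKM in mutant libraries. Mmp2 and Plat had their highest and lowest library of each group where Col1a1 did. The most abundant markers of the fibroblast list, Postn, Sparc and Dcn, did not share this order. Dcn was at 287, 295 and 235 FPKM in WT libraries and at 197, 214 and 233 FPKM in mutant libraries. With the mean log2 level of Col1a1, Col1a2 and Col3a1 as a term in the model, a fit chosen after the data were seen, the log2 difference of Mmp2 was 0.52 (limma adjusted p = 0.00345), that of Plau 0.63, of Plaur -2.70 and of Timp3 -1.19, and all 4 passed. The part of fibroblasts in these differences was not tested.

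**Figure D5:**
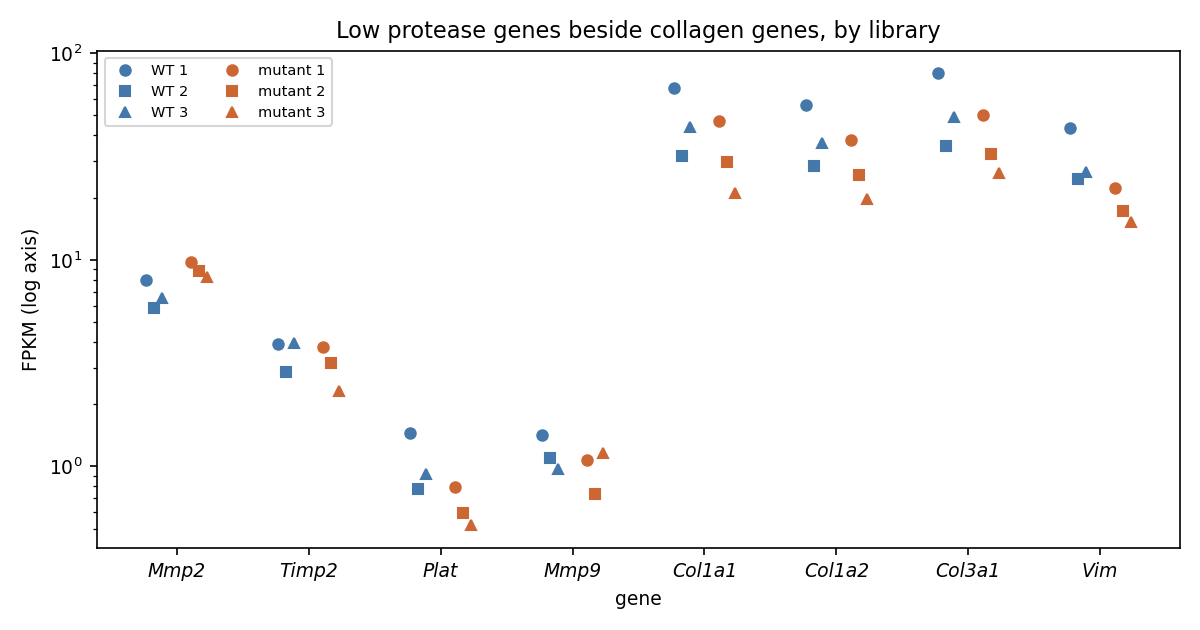
FPKM on a log axis of 4 low protease genes and 4 fibroblast-type genes in each library, with WT in blue, mutant in orange and a symbol per replicate. Replicate 1 of each group is the highest for Mmp2, Plat, Col1a1, Col1a2, Col3a1 and Vim.

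Leukocytes are another known source of Plaur and Mmp9. Of 13 myeloid and Langerhans cell markers, 6 were tested, 3 lower and 0 higher. They summed to 13.7 to 18.0 FPKM in WT libraries and to 9.99 to 12.6 FPKM in mutant libraries. Cd68 had the highest mean of this list in both groups. Its values were 2.90 to 3.46 FPKM in WT libraries and 1.68 to 2.18 FPKM in mutant libraries. Cd207 was at 0, and Ptprc, the pan-leukocyte gene, was at most 0.0976 FPKM. Ptprc was picked with its low level already known. Of 7 neutrophil markers in the table, 1 was tested, S100a9, which was higher. The neutrophil markers summed to 2.16 to 2.96 FPKM in WT and 3.82 to 5.35 FPKM in mutant libraries. Most of this was S100a9, with means of 1.95 and 4.08 FPKM. S100a8 had the next highest means, 0.371 and 0.389 FPKM with overlapping groups, and Elane was at 0. Endothelial cells make Plat: of 10 markers 1 was tested, Egfl7, which was lower, with sums of 8.98 to 13.2 and 4.96 to 7.29 FPKM. Of 6 mast cell markers 4 were tested and all 4 were lower, with sums of 28.3 to 61.5 and 16.4 to 26.4 FPKM. Of 8 measured suprabasal markers, 4 were higher and 1 lower. The part of these cells in the differences was not tested.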

How the data were processed

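Values are FPKM with lower and upper bounds for every gene of each library, per the file headers of the 1 deposited table. The authors made them with TopHat and Cufflinks, per the submitters' processing notes, which name the build mm9. Their versions and settings were not given in the sources used here. Gene positions matched GRCm38: of 23315 symbols found in GENCODE M21, 98.9% overlapped the gene of that name, and positions are given with 1 added to each start.

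Differences were tested with limma 3.58.1 in R 4.3.3 (empirical Bayes with a trend) on log2(FPKM + 1). The test took the 11385 genes whose mean reached 1 FPKM, with Benjamini-Hochberg adjustment over all of them and a threshold of 0.05. Folds of named genes are ratios of mean FPKM. The procedure was also run on simulated data in which few genes changed and the libraries did not differ in scaling. That run does not cover the scaling or the share of changed genes in these data. Tables and figures used Python 3.11.15 with pandas 2.3.3, numpy 2.4.6 and matplotlib 3.10.9.

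The 9 genes and the lists were chosen with earlier results of these data known. From each list the text names up to 4 genes past the threshold by smallest p and up to 2 of the highest mean FPKM that did not pass, and for likeness the 3 genes of highest Pearson's r among those whose mean reached 5 FPKM. Of markers, the most abundant, those at 0 and those alone in a count are named. Some genes that meet these rules are not reported here. Other genes are stated to be chosen after their values were seen. Alternatives covered the pseudocount (0.1, 0.5 and 5), the filter, scaling, variance prior, library weights, replicate block, threshold and each library left out.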

Additional observations from a re-analysis of the deposited data

How the results depend on the processing

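Plau, Plaur and Timp3 kept their direction and call in all 20 alternatives, with log2 differences of 0.61 to 1.03, -2.86 to -2.23 and -1.19 to -0.76. Mmp2 lost its call without the filter on low values (0.3608) and at a threshold of 0.01 (0.3608), and leaving out a library gave 0.2743 to 0.4685. With libraries scaled to the same total, without and with small RNA genes left out, Serpine2 passed as higher (0.4225 and 0.4654), and the sign turned for Mmp9 (0.04958 and 0.07349), Mmp14 (0.2785 and 0.323) and Timp2 (0.08814 and 0.1209). It also turned for Mmp14 under quantile normalization (0.09234) and without WT replicate 3 (leave-one-out range -0.1125 to 0.007893), for Timp2 with library weights (0.03965) and the collagen covariate (0.04905), and for Serpine2 with that covariate (-0.003681). The cause was not tested.

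Counts moved by over 1.5 times for matrix substrates (10 called, 4 with equal library totals, with or without small RNA genes), other MMPs (2 called, 1 with either of these scalings, 5 without the filter and 0 at a mean of at least 5 FPKM) and ADAM and ADAMTS genes (8 called, 5 at that mean). Over all genes, 3188 passed at a threshold of 0.01, where a stricter rule leaves fewer. Ratios moved by more than 1 SD with a pseudocount of 0.1 for Plau to Plat (1.288) and Plat to Serpine2 (-0.7284), and with a pseudocount of 5 for Plaur to Plau (-2.834), Plau to Plat (0.7057), Mmp2 to Timp2 (0.3319) and Mmp9 to Mmp2 (-0.2869), where the added constant shrinks low genes.

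Of 33 listed genes, 23 passed, of which 2 (Mmp11 and Adam8) lost the call under an alternative. Genes that had not passed gained a call under some alternatives. Scaling to the same total made Plgrkt (0.5613), Adamts17 (0.5921) and Dpp4 (0.4094) pass as higher. Leaving out small RNA genes as well added Adamts9 (0.4698), Eno1 (0.2157), Cd44 (0.2961) and St14 (0.2198). Library weights made Eno1 (-0.1603), Thbs2 (-0.1956) and St14 (-0.1526) pass as lower, and Adamts17, Adamts9 and Dpp4 as higher. Adamts17 also passed without WT replicate 3 or mutant replicate 3, and St14 passed as lower without mutant replicate 3. Signs turned only for genes that had not passed. With libraries scaled to the same total, and with small RNA genes left out as well, they turned for Eno1 (0.1707 and 0.2157), Cd44 (0.2515 and 0.2961), Thbs2 (0.09618 and 0.13), St14 (0.1765 and 0.2198), Col7a1 (0.07472 and 0.1194) and Fn1 (0.3005 and 0.3449). Under quantile normalization they turned for Eno1 (0.175), Cd44 (0.08269) and Fn1 (0.08404), and with library weights for Cd44 (0.01518) and Fn1 (0.1193). Fn1 also turned with the upper quartile (0.002993), the collagen covariate (0.01686) and without WT replicate 3 or mutant replicate 3 (leave-one-out range -0.1027 to 0.05919).

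Whether replicate numbers pair the libraries cannot be told from so few libraries per group. Deviations of same-numbered libraries correlated at 0.127, 0.122 and -0.00735. The libraries numbered 1 and 2 in each group correlated best with their own number, and those numbered 3 did not. With the replicate block, 3798 genes passed and the same 4 of the 9 genes did, Mmp2 at a limma adjusted p of 0.0239.

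Read totals are unknown. The deposited intervals show that values near 1 FPKM, such as those of Plat and Mmp9, are the least precise.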
